A study of Mus musculus with 12 samples.

Results

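The 50 genes of DNA replication and nucleotide supply were followed in RNA-seq of LSK cells from WT and Fancg KO mice. They were picked by gene name out of the 35999 genes of the expression table, and all 50 were found there. The roles covered were origin licensing (15 genes), helicase activation at the origin (9 genes), the sliding clamp and DNA synthesis (17 genes), fork protection (4 genes) and nucleotide supply (5 genes). The LSK fraction of the bone marrow, named for its lack of lineage markers and for Sca-1 and KIT on the surface, contains hematopoietic stem cells and multipotent progenitors. Mature cells were depleted, LSK cells were sorted by flow cytometry, and mRNA-enriched libraries were made from 6 WT mice and from 6 mice with the homozygous Fancg loss named Fancg -/-, written Fancg KO or KO here, with 1 library per mouse. No treatment is given for either genotype, and age, sex and strain background are not given in the sources used here. Replicates carry the numbers 2 to 7 in both genotypes.

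Before S phase, the origin recognition complex, CDC6 and CDT1 load the ring-shaped helicase made of MCM2 to MCM7 onto origins, and geminin blocks CDT1 once S phase has begun. The kinase of CDC7 and DBF4, with MCM10, TICRR, CDC45 and the GINS complex, turns the loaded ring into an active helicase. Polymerase alpha with primase lays down primers, polymerases delta and epsilon extend them with the help of the PCNA clamp, and ribonucleotide reductase, thymidylate synthase and thymidine kinase supply deoxynucleotides. Many of these genes are textbook targets of E2F transcription factors, and in bone marrow the most primitive stem cells are known for being largely out of cycle while multipotent progenitors divide.

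The promoters of the members were searched for E2F-type motifs, since this is what the transcription of the group is best known to share. The 250 bases upstream of each RefSeq start on GRCm38.p6 were read on both strands for TTTCCCGC, TTTGGCGC, TTTCGCGC or TTTGCCGC, with overlapping matches counted. An entry was found for 41 members, with 50 promoters among them, and 9 members had none. A motif was present in 9 of the 50 promoters, or 18.0%, and in 1.86% of all 32851 mouse promoters. The 9 genes were Cdc6, Gins3, Mcm5, Mcm6, Mcm7, Orc1, Orc3, Pola1 and Rfc3. A match is a string of letters and says nothing of binding, and the absence of a match says only that these letters are not in this window. The CCAAT box was found in 46.0% of the member promoters and in 33.8% of all promoters. The stretches of 4 members are given 5′ to 3′ on the strand of the gene, with the motif in capitals, because they show how the motif is placed in a helicase loader, in a pair of helicase subunits and in a polymerase subunit.
Cdc6: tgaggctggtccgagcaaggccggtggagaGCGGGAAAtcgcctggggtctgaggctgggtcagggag
Mcm5: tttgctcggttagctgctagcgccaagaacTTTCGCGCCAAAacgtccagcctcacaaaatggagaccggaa
Mcm6: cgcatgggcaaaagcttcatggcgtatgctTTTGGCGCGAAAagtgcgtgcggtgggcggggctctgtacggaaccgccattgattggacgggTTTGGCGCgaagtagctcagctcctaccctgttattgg
Pola1: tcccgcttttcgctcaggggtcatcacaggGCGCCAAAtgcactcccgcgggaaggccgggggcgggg
The Cdc6 stretch is at chr11:98907983-98908050 on the plus strand, with its motif starting 138 bases before the RefSeq start, and it lies inside the longer Cdc6 gene of GENCODE M21 but in no exon. The Mcm5 stretch is at chr8:75109326-75109397 on the plus strand and holds 2 overlapping motifs, 149 and 153 bases before the start. The Mcm6 stretch is at chr1:128359715-128359845 on the minus strand and holds 3 motifs between 110 and 47 bases before the start, of which 2 overlap. The Pola1 stretch is at chrX:93632256-93632323 on the minus strand, with the motif 138 bases before the start. The stretches of Mcm5, Mcm6 and Pola1 overlap no gene of GENCODE M21.

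Each library had a total signal of 1576081 to 2672915, where signal is the value the authors deposited for a gene, an estimated read count scaled per library. The most frequent low value in each library was taken as a step worth 1 read. This puts the depth at roughly 1235086 to 2471271 reads per library, of which the members took 2455 to 5032. Only 7.30% to 10.8% of the values above 0 were whole multiples of the step, so all read numbers here are approximate. A tested member rested on 3.30 to 462 reads in a library, and 9 members fell under 10 reads in at least 1 library. Fancg, the targeted gene, had a signal of 4.76 to 24.1 in libraries labelled WT and of 4.46 to 14.5 in those labelled KO (log2 difference -0.20, two-sided exact permutation test, p = 0.636), so its level did not separate the labels at this depth, and WT and KO below stand for the labels. Of 13 LSK markers, 12 passed the filter used here, a mean signal of at least 10. The summed signal of all 13 was 1930 to 2439 in WT and 1550 to 2260 in KO. Kit ranged from 283 to 435 and Cd34 from 528 to 728, whereas Ly6a, which encodes Sca-1, had only 4.84 to 17.4. Of 10 erythroid markers 9 fell below the filter, with Slc4a1 at 0 in every library, as did 7 of 14 granulocyte and monocyte, 9 of 12 lymphoid and 3 of 5 megakaryocyte markers. The summed signals of these lists in WT and in KO were 19.8 to 91.5 and 25.1 to 107 (erythroid), 451 to 2396 and 576 to 2555 (granulocyte and monocyte), 79.5 to 239 and 98.7 to 375 (lymphoid), and 38.7 to 89.9 and 40.6 to 264 (megakaryocyte). The Y-linked genes set 2 libraries apart, with a summed signal of 26.6 in WT replicate 3 and 49.7 in KO replicate 7; the remaining 10 libraries had 189 to 435.

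Within LSK cells the members differed widely in level. Signal per kilobase of exon, which allows genes of different length to be compared, was highest for Pcna, the clamp (71.1, mean of 12 libraries), followed by the helicase subunits Mcm6 (63.0) and Mcm5 (61.0), the DNA ligase Lig1 (55.1) and the primase subunit Prim2 (48.4). Per kilobase of coding transcript the same 5 genes led in another order, Prim2 (146), Pcna (112), Lig1 (74.1), Mcm5 (72.0) and Mcm6 (67.5). Per kilobase of exon the signal was lowest for Orc1 (1.91) and Orc2 (2.69), which mark origins, for the checkpoint mediator Clspn (2.82) and for the thymidylate synthase Tyms (3.16), and with coding transcript lengths Gins3 (5.08) came below Tyms (6.08). Pcna and Tyms have pseudogenes listed in the same table, so their reads may have been split, and the exon lengths are those of GENCODE M21, which the sources used here do not name as the annotation of the authors.

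Subunits of a complex were not at a common level. The 6 subunits of the MCM ring are present in equal numbers in the complex, and their signal per kilobase ran from 4.26 ± 0.64 (SD, n = 12) for Mcm2 to 63.0 ± 9.42 (SD, n = 12) for Mcm6, a 14.8-fold range, which was 8.19-fold, from Mcm2 to Mcm5, per kilobase of coding transcript. Mcm5 (61.0) overlapped Mcm6 and was above it when lengths of coding transcripts were used, and both were above Mcm7 (21.8) in every library, without overlap. Mcm7 and Mcm3 (20.1) overlapped, and Mcm4 (13.0) was above Mcm2 in 12 of 12 libraries. In the origin recognition complex, the per-kilobase signal was highest for Orc6 (12.6) and Orc3 (9.27), followed by Orc4 (6.42) and Orc5 (5.01), with each neighbour in this order overlapping the next and with Orc3 above Orc6 and Orc5 above Orc4 when coding transcript lengths were used. In the clamp loader, Rfc1, its large subunit, had 34.4 per kilobase and was above Rfc4 (17.9) in 12 of 12 libraries, although their ranges overlapped.

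**Figure D1:**
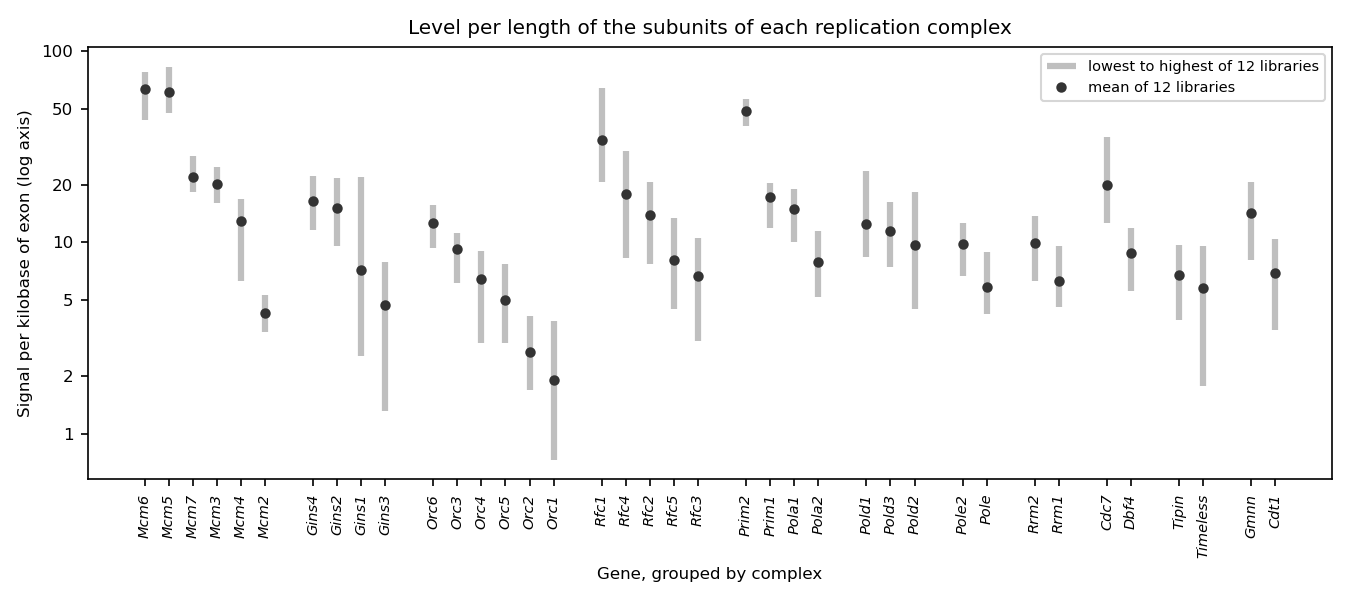
Signal per kilobase of exon (log axis) for the subunits of 11 replication complexes and pairs, with the mean (points) and the lowest to highest value (grey bars) of 12 libraries. The MCM ring spans 4.26 to 63.0 per kilobase, and Prim2 stands above the other subunits of polymerase alpha-primase without overlap.

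Prim2, the large subunit of primase, stood at 48.4 per kilobase, above Prim1 (17.2), its catalytic partner, in every library and without overlap. Pola1 (15.03), the catalytic subunit of polymerase alpha, and Pola2 (7.86) were lower, in an order that turned with coding transcript lengths. The 3 subunits of polymerase delta lay close together, from 9.69 for Pold2 to 12.4 for Pold1, with ranges that overlapped. In the GINS complex, Gins4 (16.5) and Gins2 (15.1) were not separated, being ordered this way in 6 of 12 libraries, and Gins1 (7.17) and Gins3 (4.72) were lower. Per kilobase, geminin (Gmnn) had 14.2 against 6.88 for Cdt1, which it inhibits, and was the higher gene in 12 of 12 libraries. For Cdc7 (19.9) and Dbf4 (8.76), Rrm2 (9.98) and Rrm1 (6.25), and Tipin (6.78) and Timeless (5.76), the order turned with coding transcript lengths, so none is given.

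Members also differed in how far they spread over the 12 libraries. The highest signal was 1.39 times the lowest for Prim2 and 1.53 times for Mcm3. Of the 49 members that passed the filter 16 stayed under 2 times, against 1980 of the 8796 tested genes above 0 in every library. At the other end were Gins1, a GINS subunit (8.58 times, 3.59 to 30.8 reads), Gins3 (6.01 times, 3.30 to 21.7 reads) and Timeless, which travels with the fork (5.37 times, 8.65 to 61.8 reads). The median ratio was 2.45 for the members and 2.66 for the 8796 tested genes above 0 in every library.

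Between genotypes, no replication gene passed the test across all genes. The filter left 8887 genes, of which 49 were members. Orc1, the largest subunit of the origin recognition complex, fell below it with a mean signal of 6.65, and the members just above it were Orc2 (10.4), Gins1 (10.9), Tipin (12.7) and Gins3 (12.8). In limma on log2(signal + 1), 0 of 49 members had an adjusted p under 0.05, against 0% of all genes tested, and the smallest adjusted p of a member was 0.9996. At an unadjusted p under 0.05, 1 member was called, Mcm10, against 3.67% of all genes (1.98% higher and 1.69% lower in KO). No member separated the genotypes without overlap, which 0.09% of all genes did. Of the 49 members, 29 were higher in KO, or 59.2%, against 50.7% of all genes, and the median log2 fold change was 0.04 against 0.003. Leaving out 1 library moved the count from 24, without WT replicate 4, to 37, without KO replicate 3, and the median from -0.01 to 0.12. These p-values set the difference between genotypes against the spread between libraries of a genotype, 1 per mouse, which includes counting error.

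The intervals say how large a difference could have been missed. The 95% interval of the log2 fold change lay within a 2-fold change in either direction for 48 of 49 members, against 83.4% of all genes tested, and Gins1 was the exception, with an interval from -1.18 to 0.47. For 21 of 49 members it lay within a 1.5-fold change, among them all 6 subunits of the MCM ring, against 3188 of 8887 genes tested. The median standard error of a member was 0.20 on the log2 scale, against 0.24 for all genes tested.

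**Figure D2:**
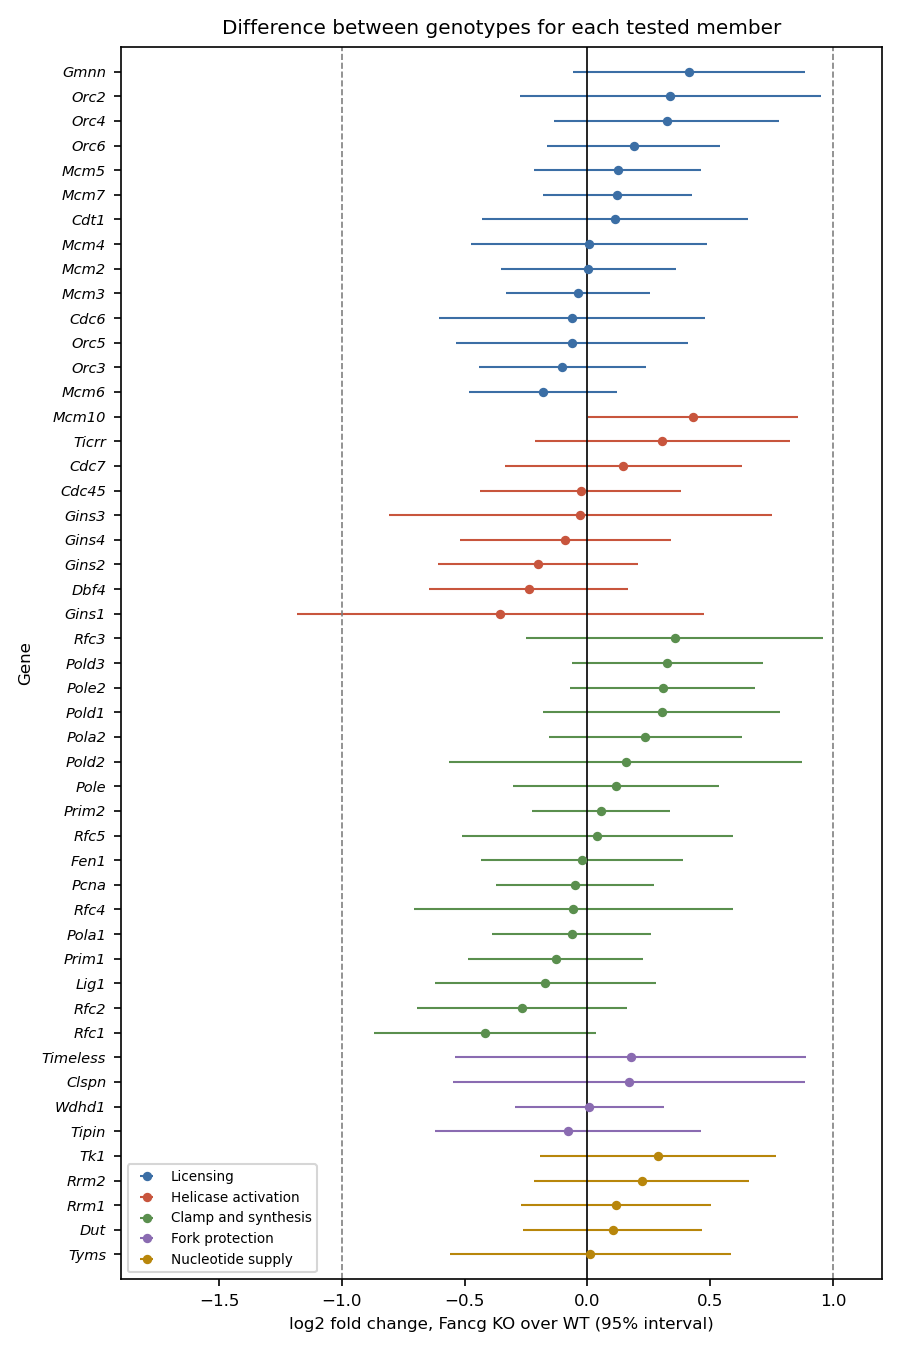
Log2 fold change of Fancg KO over WT for each of the 49 members tested (points), with its 95% interval (lines), coloured by role and sorted within each role, and with dashed lines at a 2-fold change. Only the interval of Mcm10 lies off 0, and only that of Gins1 crosses a dashed line.

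Among licensing genes, 9 of 14 tested members were higher in KO, 5 were lower, and 0 had a p under 0.05, at a median of 0.06 on the log2 scale. Gmnn, which encodes the CDT1 inhibitor geminin, came closest. Its signal was 11.8 to 27.4 in WT, with a median of 16.6, and 16.1 to 30.3 in KO, with a median of 23.9. Most KO libraries lay above most WT libraries, but WT replicate 6 was among the highest and KO replicate 4 among the lowest, so the groups overlapped. The log2 fold change was 0.41 ± 0.22 (SE), with limma p = 0.081 and an exact permutation p of 0.074, and its unadjusted p was under 0.05 without WT replicate 6 or KO replicate 4.

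Cdt1, the loader that geminin blocks, had a signal of 14.9 to 25.7 in WT (median 20.3) and of 10.9 to 32.6 in KO (median 23.3). The KO range enclosed the WT range, with KO replicate 3 lowest and KO replicate 7 highest, and the log2 fold change was 0.11 ± 0.25 (SE). For Cdc6, the other loader, the signal was 54.1 to 83.4 in WT (median 60.0) and 30.5 to 96.0 in KO (median 63.0), again with the WT values inside the KO range (log2 fold change -0.06 ± 0.25, SE).

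The origin recognition genes were low in signal, and 3 of the 5 tested were higher in KO, with a median log2 fold change of 0.19. Orc4, a subunit that resembles the ATPase subunits of the complex, had 22.1 to 59.3 in WT (median 45.8) and 47.0 to 67.5 in KO (median 49.2). The KO libraries were held in a narrow band with KO replicate 5 above the rest, while WT replicate 6 was far below all others. Its log2 fold change was 0.32 ± 0.22 (SE, exact permutation p = 0.190), and 0.15 without WT replicate 6. The other tested subunits were at 0.34 ± 0.29 (Orc2), 0.19 ± 0.16 (Orc6), -0.06 ± 0.22 (Orc5) and -0.10 ± 0.16 (Orc3, SE). Orc1, not tested for its low signal, had 2.55 to 9.97 in WT (median 4.22) and 3.24 to 13.4 in KO (median 9.62), on 2.21 to 14.9 reads, and the groups overlapped (two-sided exact permutation test, p = 0.126).

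The 6 subunits of the MCM helicase were split, with Mcm2, Mcm4, Mcm5 and Mcm7 at log2 fold changes of 0.00 to 0.12 and Mcm3 and Mcm6 at -0.04 and -0.18, and a median of 0.005. Mcm6 had a signal of 276 to 361 in WT (median 307) and of 203 to 361 in KO (median 278). The highest libraries of both genotypes were alike, and 3 KO libraries lay below every WT library, with KO replicate 3 the lowest of all. The log2 fold change was -0.18 ± 0.14 (SE, exact permutation p = 0.182, 95% interval -0.48 to 0.12).

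Mcm5 had 194 to 297 in WT (median 223) and 190 to 331 in KO (median 252), and Mcm7 had 82.4 to 107 in WT (median 88.3) and 80.9 to 126 in KO (median 105). In both, the KO libraries reached further up, and the lowest libraries of the genotypes were alike (log2 fold changes of 0.12 ± 0.16 and 0.12 ± 0.14, SE). Mcm2 had 25.4 to 36.2 in WT (median 29.0) and 23.5 to 37.0 in KO (median 31.2), and Mcm3 had 62.0 to 92.8 in WT (median 76.7) and 60.5 to 86.3 in KO (median 73.2). Both pairs of ranges nearly coincided. Mcm4 had 35.7 to 60.3 in WT (median 45.3) and 22.4 to 60.8 in KO (median 47.9), and only KO replicate 3 lay below the WT range. The directions of Mcm2 (0.003) and Mcm4 (0.006) turn with quantile normalization and with centring on the median gene.

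Among the genes of helicase activation, 3 of 9 were higher in KO and 6 were lower, at a median of -0.03 on the log2 scale. Mcm10, a scaffold that acts as the helicase starts to move, had the smallest p of the 50 genes. Its signal was 21.6 to 36.4 in WT, with a median of 23.1, and 26.5 to 55.8 in KO, with a median of 32.8. Of the WT libraries 4 lay below every KO library, WT replicates 3 and 4 lay among them, and KO replicate 7 was the highest by a wide margin. The log2 fold change was 0.43 ± 0.20 (SE, 95% interval 0.004 to 0.858), with limma p = 0.048, an adjusted p of 0.9996 and an exact permutation p of 0.035. In the 12 fits that left out 1 library the value ran from 0.30, without KO replicate 7, to 0.53, without WT replicate 3. Mcm10 kept an unadjusted p under 0.05 in 4 of these fits, without WT replicates 3 or 4 or KO replicates 3 or 5, and lost it in the other 8. The gene lies at chr2:4989714-5012791 on GRCm38.

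Dbf4, the activating subunit of the CDC7 kinase, had a signal of 56.4 to 104 in WT (median 85.3) and of 48.8 to 86.4 in KO (median 77.6). The highest KO library was close to the WT median, but KO and WT libraries overlapped over most of the range (log2 fold change -0.24 ± 0.19, SE, exact permutation p = 0.242). Its partner Cdc7 was at 0.15 ± 0.23 (SE), with KO replicate 7 highest at 149. The 4 GINS genes were lower in KO in their fitted values, from -0.35 ± 0.39 for Gins1 through -0.20 ± 0.19 for Gins2 and -0.09 ± 0.20 for Gins4 to -0.03 ± 0.37 for Gins3 (SE), and none had a p under 0.05. Without WT replicate 7 the difference of mean log2(signal + 1) for Gins1 was -0.05, and for Gins3 it turned above 0 when 1 of 4 libraries was left out, up to 0.27 without KO replicate 2. Ticrr, which recruits the replication machinery to loaded helicases, was at 0.31 ± 0.24 (SE, exact permutation p = 0.288), with the highest value of each genotype in WT replicate 3 (105) and KO replicate 2 (111), and its unadjusted p was under 0.05 without WT replicate 3. Cdc45, a helicase component, was at -0.03 ± 0.19 (SE).

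**Figure D3:**
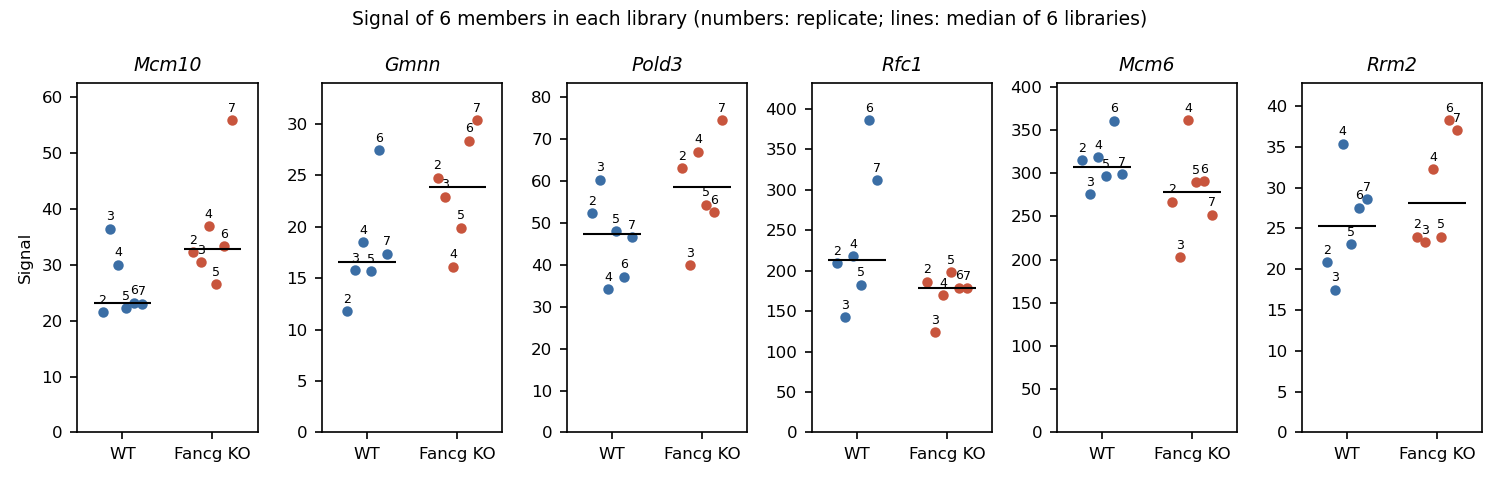
Signal of 6 members in each library, with the replicate number beside each point, a line at the median of 6 libraries and axes that start at 0. The KO libraries of Mcm10 start at 26.5, above 4 of the WT libraries, and WT replicates 6 and 7 set the high end of Rfc1 at 386.

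The 17 genes of the clamp and of DNA synthesis were even in direction, 9 higher and 8 lower in KO, at a median of 0.04 on the log2 scale and no p under 0.05. Rfc1, the large subunit of the loader that opens PCNA, had a signal of 143 to 386 in WT (median 213) and of 124 to 198 in KO (median 179). The KO libraries stayed within a narrow range at the low end, WT replicates 6 and 7 lay far above it, and WT replicates 3 and 5 lay inside it. The log2 fold change was -0.42 ± 0.21 (SE), with limma p = 0.067 and an exact permutation p of 0.117. It was -0.27 without WT replicate 6 and -0.55 without WT replicate 3, and its unadjusted p was under 0.05 without WT replicate 3 or 5, so single WT libraries decided its size and call. The other loader subunits were not aligned with it, with Rfc3 at 0.36 ± 0.28, Rfc5 at 0.04 ± 0.26, Rfc4 at -0.06 ± 0.31 and Rfc2 at -0.27 ± 0.20 (SE), which had an unadjusted p under 0.05 without KO replicate 7.

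Pcna itself had a signal of 141 to 210 in WT (median 179) and of 124 to 195 in KO (median 173), ranges that overlapped almost wholly (log2 fold change -0.05 ± 0.15, SE, 95% interval -0.37 to 0.27). Of the 9 polymerase and primase genes, 7 were higher in KO, with a median log2 fold change of 0.16. Pold3, an accessory subunit of polymerase delta, had 34.1 to 60.3 in WT (median 47.3) and 39.8 to 74.4 in KO (median 58.7). The upper KO libraries were above all WT libraries, and KO replicate 3 lay below the WT median. The log2 fold change was 0.33 ± 0.18 (SE, limma p = 0.096, exact permutation p = 0.097), and its unadjusted p was under 0.05 without WT replicate 3 or KO replicate 3. Pole2, the second subunit of polymerase epsilon, was at 0.31 ± 0.18 and Pold1, the catalytic subunit of polymerase delta, at 0.30 ± 0.23 (SE). Their partner subunits Pole (0.12 ± 0.20) and Pold2 (0.16 ± 0.34) lay between these and 0 (SE). So did Pola2 (0.24 ± 0.18) and Prim2 (0.06 ± 0.13) of polymerase alpha-primase, whereas Pola1 was at -0.06 ± 0.15 and Prim1 at -0.13 ± 0.17 (SE). Lig1 and Fen1, which join and trim Okazaki fragments, were at -0.17 ± 0.21 and -0.02 ± 0.19 (SE).

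The 4 fork protection genes gave log2 fold changes from -0.08 for Tipin to 0.18 for Timeless. Timeless, which with TIPIN keeps helicase and polymerase coupled, had a signal of 10.8 to 58.3 in WT (median 36.7) and of 23.2 to 52.0 in KO (median 31.8). The WT range enclosed the KO range, because WT replicate 6 was the lowest library of all and WT replicate 3 the highest, and the fitted value was -0.10 without the former and 0.36 without the latter. Clspn, which carries the checkpoint signal from stalled forks to CHK1, had 10.4 to 29.8 in WT (median 16.0) and 10.2 to 35.7 in KO (median 23.1), with wide overlap (0.17 ± 0.34, SE). Wdhd1, which ties polymerase alpha to the helicase, was at 0.008 ± 0.14 (SE).

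All 5 nucleotide supply genes had fitted values above 0, from 0.01 for Tyms to 0.29 for Tk1, with a median of 0.12 and no p under 0.05. Rrm1, the large subunit of ribonucleotide reductase, had a signal of 54.2 to 77.9 in WT (median 61.1) and of 50.8 to 105 in KO (median 74.1), and Rrm2, its small and cycle-regulated subunit, had 17.5 to 35.4 in WT (median 25.3) and 23.3 to 38.2 in KO (median 28.1). For Rrm1 only KO replicate 4 stood clearly above WT, and for Rrm2 the lowest libraries were WT (log2 fold changes of 0.12 ± 0.18 and 0.22 ± 0.21, SE). Tk1, the thymidine kinase of the salvage pathway, had 19.3 to 37.5 in WT (median 22.9) and 21.01 to 51.8 in KO (median 29.7), with KO replicate 7 far above the other libraries (0.29 ± 0.23, SE, exact permutation p = 0.232). Tyms, which makes thymidylate, had its highest value in WT replicate 6 and was at 0.01 ± 0.27 (SE), and Dut, which removes dUTP, was at 0.10 ± 0.17 (SE).

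The 8 tested members with an E2F-type motif in the upstream window had log2 fold changes from -0.18 (Mcm6) to 0.36 (Rfc3), with 3 higher and 5 lower in KO, a median of -0.04 and no p under 0.05.

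The mean level of the members differed more between mice of a genotype than between genotypes. The mean log2(signal + 1) over the 50 genes was 5.525 ± 0.09 (SD, n = 6) in WT and 5.596 ± 0.19 (SD, n = 6) in KO, a difference of 0.07, which is below the pooled SD of 0.15. The WT libraries lay between 5.46 and 5.50 except WT replicate 6 (5.71), and the KO libraries ran from 5.31 in KO replicate 3 to 5.77 in KO replicate 6 and 5.84 in KO replicate 7. The KO range therefore enclosed the WT range. By role, the difference of means was 0.12 for licensing, -0.01 for helicase activation, 0.04 for clamp and synthesis, 0.07 for fork protection and 0.15 for nucleotide supply, each with overlapping genotypes.

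**Figure D4:**
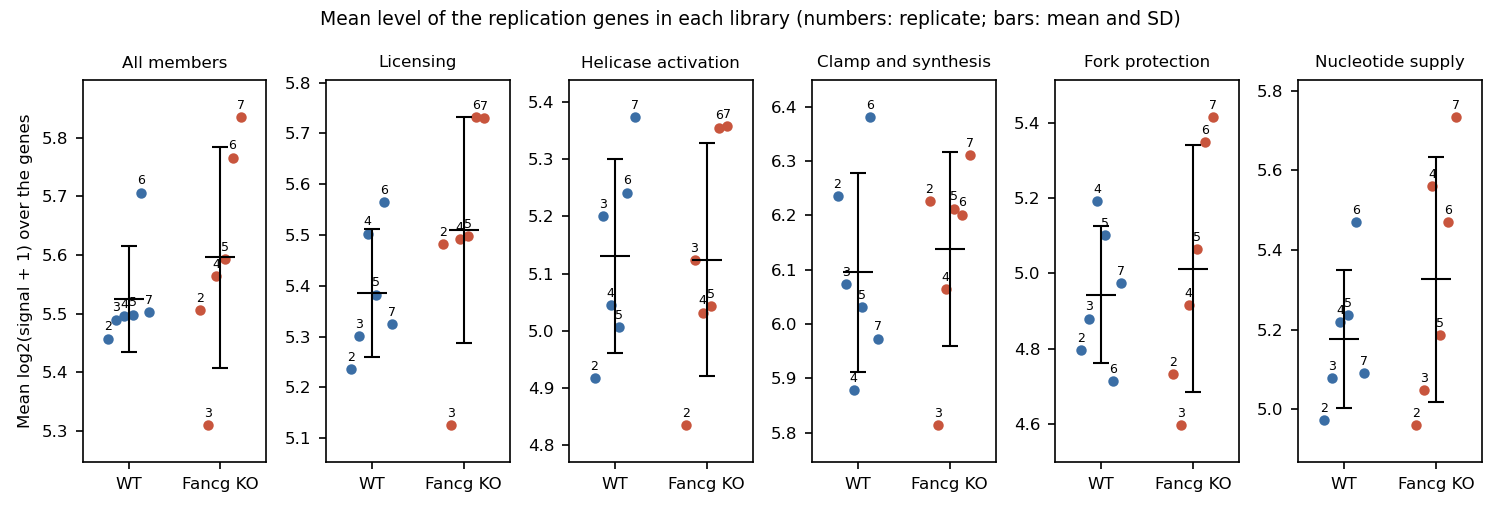
Mean log2(signal + 1) over all 50 members and over the members of each role in each library, with the replicate number beside each point and bars for the mean and SD of 6 libraries. KO replicate 3 (5.31) and KO replicate 7 (5.84) are the lowest and highest libraries over all members.

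The libraries at the ends were set by many members. KO replicate 3 had the lowest of the 12 values in 15 of 49 tested members, against 11.02% of all genes tested. Among these 15 were 7 licensing genes and 6 genes of the clamp and of synthesis. KO replicate 3 had the highest value in 0 members, against 5.19% of all genes tested. KO replicate 7 had the highest value in 12 of 49 members, against 14.9% of all genes tested, and the lowest in 0, against 9.58%. It lay above the mean of the gene in 38 of 49 members, or 77.6%, against 57.7% of all genes tested. KO replicate 6 also lay above the mean in 77.6% of members, against 51.7% of all genes, and WT replicate 6 in 69.4%, against 55.5%. For KO replicate 3 the shares were 28.6% and 42.4%. The 3 libraries high in the members, KO replicates 7 and 6 and WT replicate 6, were also the shallowest, at about 1235086, 1389842 and 1441191 reads. They had the fewest genes above 0 (14206, 14858 and 14600). WT replicate 7 was nearly as shallow, at about 1484247 reads, but was not high in the members. It lay above the mean of the gene in 40.8% of members, against 49.0% of all genes. KO replicate 3, low in the members, had about 2161714 reads and the most genes above 0 (16460), and the part of depth in these levels was not tested.

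**Figure D5:**
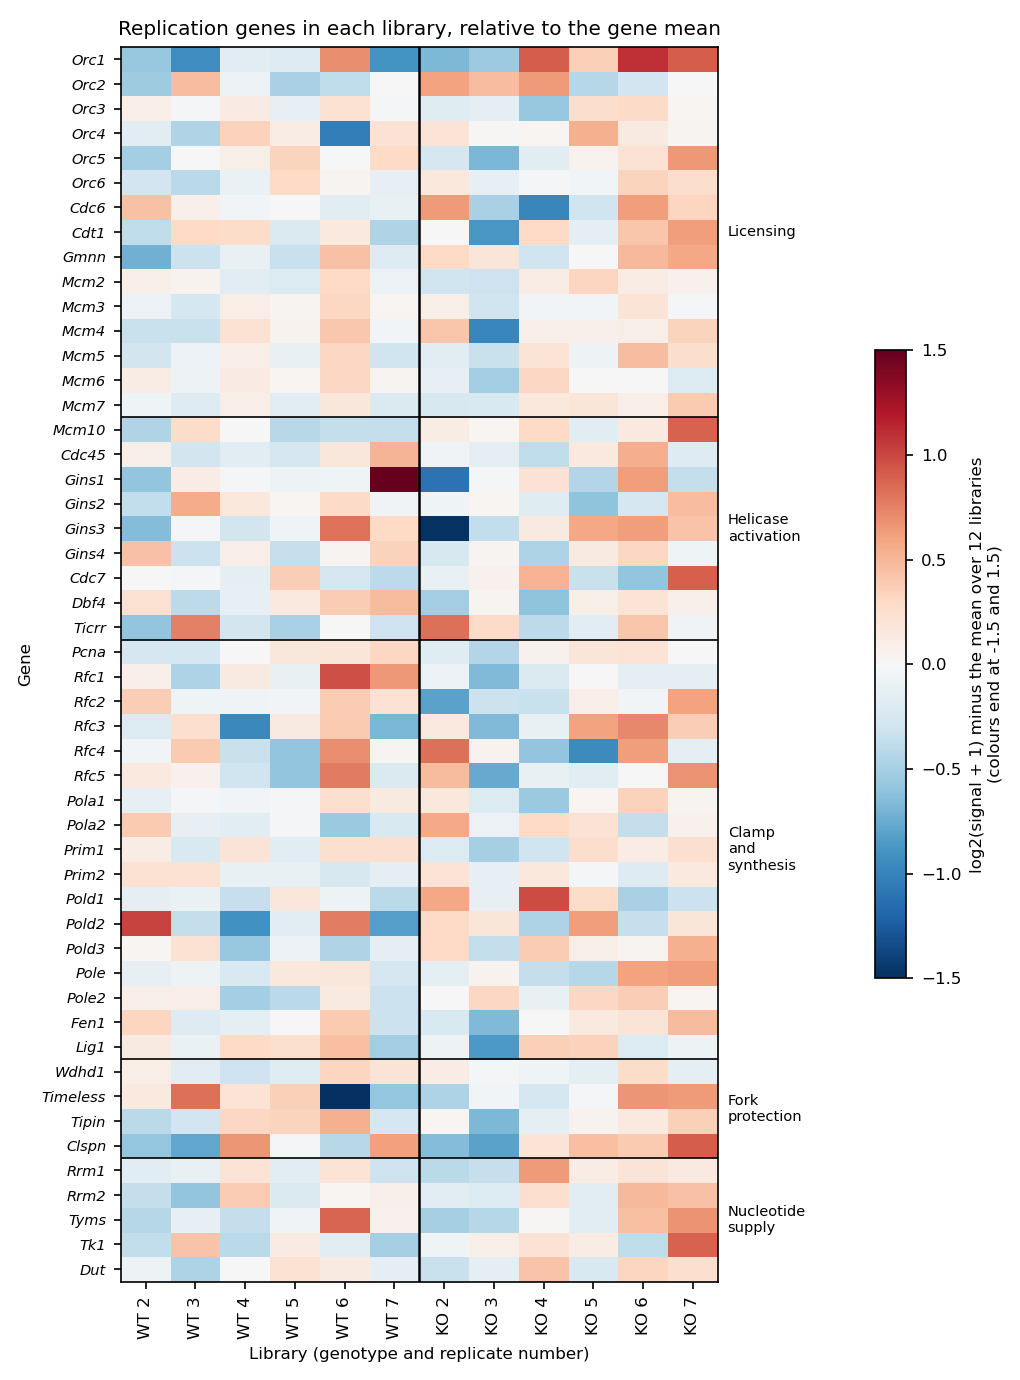
Log2(signal + 1) of each of the 50 members in each of the 12 libraries, minus the mean of the gene over the libraries, with genes grouped by role and a line between the genotypes. Columns KO 6, KO 7 and WT 6 hold mostly values above 0 and column KO 3 mostly values below 0.

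These libraries also held the ends of the mitosis genes. The mean log2(signal + 1) over 21 mitosis genes was highest in KO replicate 7 (6.12), KO replicate 6 (6.03), KO replicate 5 (5.99) and WT replicate 6 (5.98), and lowest in KO replicate 3 (5.04), against 5.35 to 5.68 in the others. KO replicate 6 and WT replicate 6 had the highest signal of Mpo, the myeloid granule enzyme (1650 and 1513, against 255 to 754 in the others), and the lowest of Hlf, a stem cell transcription factor (38.7 and 38.4, against 73.3 to 136). KO replicate 7 had the highest signal of Vwf, a megakaryocyte and stem cell gene (177, against 12.5 to 54.9). It was not high in Hlf (74.8) or in Ly6a (5.14, in a range of 4.84 to 17.4 over the 12 libraries). The part of these differences in the level of the replication genes was not tested, and in bulk RNA fewer cells of a type and less RNA per cell cannot be told apart. Without WT replicate 3 and KO replicate 7, the libraries low in Y-linked genes, 24 of 49 members were higher in KO, against 47.5% of all genes, the median log2 fold change was -0.007 and the difference of the member means was 0.02. In that fit 4 members, or 8.16%, had an unadjusted p under 0.05, against 4.50% of all genes, namely Mcm10 and Ticrr higher and Rfc1 and Rfc2 lower in KO.

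Other lists around the pathway were read in the same way. Of 34 tested genes among 38 others of replication and nucleotide metabolism, 14 were higher in KO, the median log2 fold change was -0.02, and 2, or 5.88%, had an unadjusted p under 0.05, against 3.67% of all genes, both lower in KO. Rpa2, a subunit of the single-strand binding protein RPA, had a signal of 20.2 to 33.6 in WT (median 22.4) and of 13.1 to 21.1 in KO (median 16.3), with overlap only at the edge (log2 fold change -0.51 ± 0.19, SE, limma p = 0.017, exact permutation p = 0.009). Samhd1, which breaks down deoxynucleotides, had 70.1 to 135 in WT (median 95.2) and 51.1 to 82.6 in KO (median 71.8), with the upper KO libraries above the lowest WT library (log2 fold change -0.50 ± 0.17, SE, limma p = 0.010, exact permutation p = 0.011). The adjusted p of both was 0.9996. Of 21 tested genes of E2F and RB control, 14 were higher in KO with a median of 0.07, and of 21 mitosis genes 14 were higher with a median of 0.09, and in both lists 0 had a p under 0.05.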

How the data were processed

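RNA-seq libraries of sorted LSK cells from 12 mice were made with a CATS kit and sequenced on a NextSeq 500. The deposited table holds 1 value per gene and library, called signal, which per its name and values the authors made as estimated read counts normalized per library. The submitters' processing notes name kallisto, with no version, and the mouse build and annotation are not given in the sources used here. Of the values above 0, 7.30% to 10.8% were whole multiples of the step in their library (tolerance 0.001). Whole reads were therefore not recovered and no count model was used. Values were taken as deposited, and 0 columns were left unused. The 8887 genes whose mean signal over 12 libraries reached 10 were tested on log2(signal + 1), where the pseudocount of 1 understates changes of low genes, with limma 3.58.1 in R 4.3.3 (a linear model of genotype with empirical Bayes moderation and a mean-variance trend, two-sided, p-values adjusted by Benjamini-Hochberg over all these genes, 95% intervals of the coefficient). Exact permutation tests over all 924 splits of 6 against 6 libraries, whose smallest p is 0.002, were run for single genes. On simulated data with 8887 genes, 62 of 100 genes changed by 1 and 95 of 100 changed by 2 on the log2 scale were called at an adjusted p under 0.05, with 6 false calls. The simulated noise was normal and drawn independently for each gene and library, with the spread of the real gene. It held no shifts shared by many genes of a library, so these shares may not hold for the real data.

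Members named with full values are those with an unadjusted p under 0.05, the 2 of smallest p in each role, Mcm2 to Mcm7, Pcna, Rrm1, Rrm2, Cdt1, Gmnn, Cdc6 and any with genotypes that do not overlap, and others were added after their values were seen. Members and gene lists were chosen with earlier results of these data known. Exon lengths come from GENCODE M21 (GRCm38), in which 35929 of the 35999 gene names were found, and promoters from RefSeq (GRCm38.p6), matched by symbol. Alternatives were other pseudocounts, filters and scalings, limma without trend, the replicate number as a block, each library left out and both libraries low in Y-linked genes left out.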

Additional observations from a re-analysis of the deposited data

Results flagged for a closer look

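Of 100 sets of 6 libraries, each a member or the mean over all members in 1 genotype, 9 were flagged. In these the highest or lowest library stood apart from the other 5 by more than Dixon's 95% limit allows. Single members made up 8 of them and the mean over all members 1. Chance flags about 1 in 20 sets, or 5 of 100, where values are normal and sets independent. The sets here share the same 12 libraries and normal values were not shown, so the number flagged cannot be weighed against chance. In WT, a single library was high for Cdc6 in replicate 2 (signal 83.4, next 64.5), Gins1 in replicate 7 (33.2, next 10.3), Ticrr in replicate 3 (105, next 61.6) and Tyms in replicate 6 (34.2, next 19.2). In KO, a single library was high for Orc4 in replicate 5 (67.5, next 53.8), Mcm10 in replicate 7 (55.8, next 37.0) and Tk1 in replicate 7 (51.8, next 32.3), and low for Mcm4 in replicate 3 (22.4, next 47.7). The mean log2(signal + 1) over all 50 members was high in WT replicate 6 (5.71, next 5.50).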

How the results depend on the processing

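Depth is known only approximately, members near the filter rest on few reads, and the spread between mice includes counting error. Under every alternative tried, 0 members had an adjusted p under 0.05. The number with an unadjusted p under 0.05, 1 of 49 as reported, was 0 with a pseudocount of 5 (3.58% of all genes in that fit), 0 of 25 with a mean signal of at least 50 (2.92%, with 12 of the 25 higher in KO), 2 (Mcm10 and Rfc1) with quantile normalization (3.72%) and 2 with centring on the median of the tested genes (3.76%), and 4 without both libraries low in Y-linked genes (4.50%). With 1 library left out in turn this number ran from 0 (without WT replicate 2 or 7 or KO replicate 2 or 6, with 3.11% to 3.94% of all genes) to 4 (without WT replicate 3, with 4.02%), the number of members higher in KO from 24 to 37, the median log2 fold change from -0.01 to 0.12, and the difference of the member means from 0.02 to 0.13. The cause was not tested. The direction turned for Mcm2 (-0.019) and Mcm4 (-0.011) with quantile normalization, for both again (-0.0154 and -0.0129) with centring, and for Mcm4 (-0.13) and Clspn (-0.13) without the libraries low in Y-linked genes. It also turned when single libraries were left out for Cdc6 (-0.19 to 0.13), Cdt1 (-0.00081 to 0.30), Mcm2 (-0.061 to 0.065), Mcm3 (-0.096 to 0.019), Mcm4 (-0.078 to 0.20), Pcna (-0.11 to 0.031) and Timeless (-0.10 to 0.36). A pseudocount of 0.5, a mean signal of at least 5, no filter, scaling to a total without the 15 highest genes and limma without trend left the number at 1 and turned no named member.

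The replicate numbers were also used as a block. Same-numbered libraries deviated together, with correlations of 0.09 to 0.36, not all above 0.1 (mean 0.20, other numbers -0.04). Of 12 libraries, 9 correlated best with their own number. What same-numbered libraries share is not given in the sources used here and was not tested. With the replicate block 1 member had an unadjusted p under 0.05, against 5.36% of all genes tested. It was Rfc1 and not Mcm10 (adjusted limma p of 0.889 for both). In that fit 0 members had an adjusted p under 0.05, 29 were higher in KO, the median was 0.04 and the difference of means 0.07. The member mean was higher in KO in 5 of 6 same-numbered pairs, against 4 of 6 for the mean over all genes. An exact two-sided sign-flip test over the differences of same-numbered libraries gave a p under 0.05 for 2 of 50 members, Orc2 and Pola2. Both were higher in KO in 6 of 6 pairs, with the smallest sign-flip p possible, 0.031. Their unadjusted limma p in the main fit was 0.259 and 0.218. No share over all genes is given for the sign-flip test, so the count of 2 cannot be read as a result about the members.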

Other observations

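Among the marker lists of LSK cells and of other bone marrow cells, 2 of the 25 genes that passed the filter had an unadjusted p under 0.05, or 8% against 3.67% of all genes, and their adjusted p was 0.9996. Itga2b, the integrin subunit known as CD41 that marks megakaryocytes and some early progenitors, had a signal of 11.8 to 19.2 in WT (median 14.6) and of 19.2 to 45.4 in KO (median 22.2), with the lowest KO library level with the highest WT library (log2 fold change 0.72 ± 0.23, SE, exact permutation p = 0.004). Flt3, the receptor that rises in multipotent progenitors on the way to lymphoid fate, had 363 to 646 in WT (median 464) and 178 to 523 in KO (median 351), with KO replicate 6 lowest (log2 fold change -0.51 ± 0.23, SE, exact permutation p = 0.063). KO replicate 6 was also among the libraries with the highest level of the replication genes. The other 23 marker genes had no unadjusted p under 0.05.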
